A study of Arabidopsis thaliana with 9 samples.

Results

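The late anthocyanin pathway genes described here are DFR (AT5G42800), AT4G14090 (UGT75C1) and AT5MAT (AT3G29590). They are 3 of the 13355 genes with a probe set of their own in the array annotation, and each had 1 of the 22746 non-control probe sets of the Affymetrix Arabidopsis array. Their probe sets were found by annotation, and the choice of these genes was made with earlier results of these data known. The RNA came from Arabidopsis thaliana seeds of the Columbia ecotype that germinated and grew on a shaker in liquid medium. The medium held 2% sucrose, 10 mM MES and 2,4-D, a synthetic auxin, at 4.5 µM. Light was on for 23 h and off for 1 h per cycle, and tissue was frozen on day 10. Somatic embryos form at the shoot apex of seedlings under these conditions. The genotypes were wild type, the overexpressor 35S:AGL15 and a double mutant (agl15-4 agl18-1), each with 3 arrays.

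AGL15 encodes a MADS-domain transcription factor, and 35S:AGL15 expresses it constitutively from the 35S promoter of a plant virus. The double mutant carries insertional loss-of-function alleles of AGL15 and of the related gene AGL18. The design text states that the overexpressor forms more somatic embryos than wild type, and the double mutant fewer. All groups shared the ecotype, the auxin and the culture time. How many independent transgenic lines were used, and whether each sample came from its own flask, is not given in the sources used here. Samples are labelled as biological replicates, and p-values measure the spread between them.

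Anthocyanins are red to purple pigments made from phenylalanine by way of flavonoids. Early enzymes of the route make dihydroflavonols, which can become colourless flavonols or, through DFR, pigments. In Arabidopsis seedlings the late genes are switched on together by complexes of MYB, bHLH and WD40 proteins, and sugar and light are known to raise them. DFR, dihydroflavonol 4-reductase, makes the precursors of anthocyanins and of seed coat tannins. UGT75C1 adds a glucose to the anthocyanin core, and AT5MAT attaches a malonyl group to that same glucose.

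Of 57 fixed genes of the flavonoid and anthocyanin pathway, 10 had a probe set assigned to 1 gene in the array annotation. Those 10 were 5 of 11 late anthocyanin genes, 1 of 5 early flavonoid genes, 3 of 6 flavonol branch genes and 1 of 7 proanthocyanidin genes. None of the 10 activators, among them PAP1, TT8 and TTG1, or of the 7 repressors was measured by such a probe set, so the regulators of these genes were not analysed here.

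An array's background level was set as the intensity of the brightest of 27 control probe sets for Bacillus transcripts. It ran from 13.7 to 40.5, and was highest on replicate 1 of the double mutant. The array medians ran from 132 to 199, whereas the trimmed means were between 500.04 and 500.06. Spike-in controls averaged 657 to 875 on the wild type arrays and on replicates 1 and 2 of 35S:AGL15, and 1065 to 1690 on replicate 3 of 35S:AGL15 and the double mutant arrays. Correlation of log2 intensity within a group was between 0.943 and 0.964. Of 7 shoot meristem markers 2 were measured. LAS, a regulator of axillary meristems, was above background on every array, while CLV3, a stem cell signal of the shoot meristem, was below it on all 9. BBM, an embryo transcription factor, lay between 361 and 650 across the 9 arrays. OLEO3, an oil body protein of seeds, and PAP85, a seed storage protein, were the other measured embryo markers of 8 listed, and both were above background on every array.

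**Figure D1:**
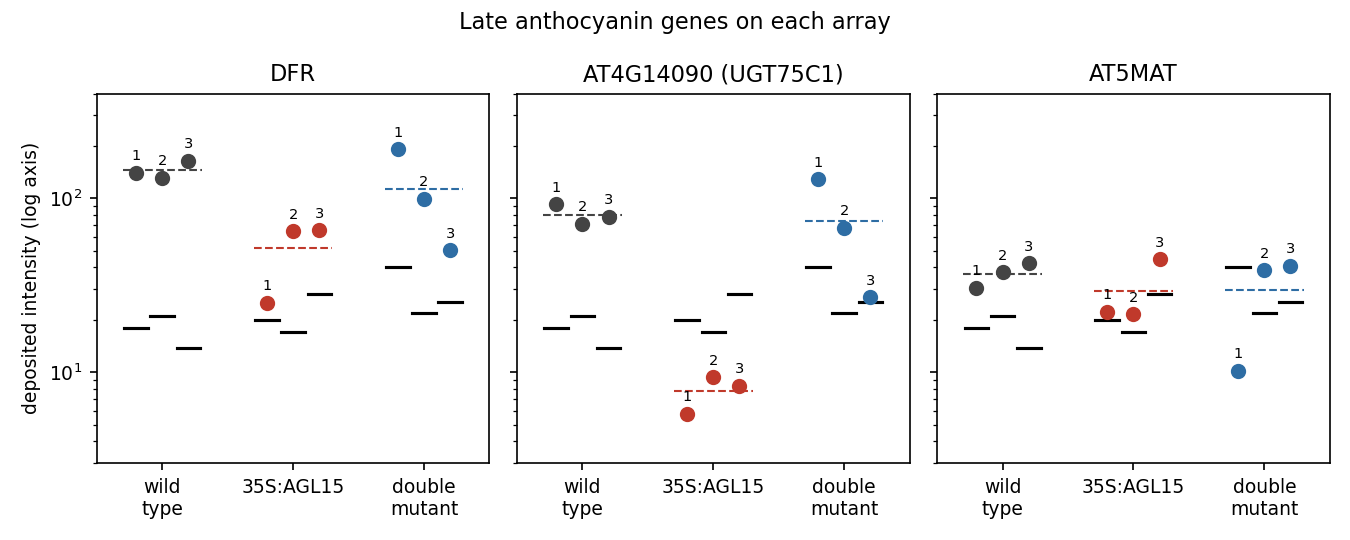
Deposited intensity (log axis) of DFR, AT4G14090 (UGT75C1) and AT5MAT on each of the 9 arrays. Points are arrays, labelled with the replicate number, dashed lines are group means and short black lines are the background level of each array. AT4G14090 lay below background on all 3 arrays of 35S:AGL15, and DFR and AT4G14090 were spread widely in the double mutant.

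DFR had intensities of 140, 131 and 164 in wild type replicates 1 to 3. In 35S:AGL15 DFR measured 25.1, 64.6 and 65.6. In the double mutant it measured 192, 99.0 and 50.3. The wild type arrays lay close together, every array of 35S:AGL15 lay below every wild type array, and the double mutant arrays reached from above wild type into the range of 35S:AGL15. All 9 arrays were above background for DFR, although replicate 1 of 35S:AGL15 was only 1.26 times its background level.

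DFR averaged 145 ± 17.3 (SD, n = 3) in wild type, 114 ± 71.9 in the double mutant and 51.7 ± 23.1 in 35S:AGL15. The log2 difference of DFR between 35S:AGL15 and wild type was −1.61 (SE 0.53, 95% confidence interval −2.83 to −0.39), which did not pass the threshold of an adjusted p of 0.05 over all probe sets (limma, adjusted p = 0.163). Between the double mutant and wild type it was −0.55 (SE 0.53, interval −1.77 to 0.67, adjusted p = 0.510 by limma). Between 35S:AGL15 and the double mutant it was −1.06 (SE 0.53, interval −2.28 to 0.16, adjusted p = 0.217 by limma). The order of the means was thus wild type, double mutant, 35S:AGL15, with no neighbours that passed the test. The DFR difference from wild type was −1.84 when replicate 3 of 35S:AGL15, the array of that group with bright spike-in controls, was left out. Without replicate 1 of 35S:AGL15 it was −1.15. The DFR difference between 35S:AGL15 and the double mutant was −0.58 without double mutant replicate 1, −1.54 without double mutant replicate 3, −0.60 without 35S:AGL15 replicate 1 and −0.49 under spike-in scaling. Between the double mutant and wild type it was −1.03 without double mutant replicate 1 and −0.07 without its replicate 3.

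AT4G14090 (UGT75C1) fell in 35S:AGL15. Its intensities were 92.2, 71.3 and 78.2 in wild type and 128, 67.5 and 27.0 in the double mutant, all above background. In 35S:AGL15 they were 5.78, 9.33 and 8.34, each below the background level of its array. Neither the wild type nor the double mutant arrays overlapped with those of 35S:AGL15, but replicate 3 of the double mutant stood at only 1.07 times its background. That array's 27.0 was also under the background level of 35S:AGL15 replicate 3, 28.1. The separation from the double mutant thus rests on values below background.

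The means of AT4G14090 were 80.6 ± 10.6 (SD, n = 3) in wild type, 74.3 ± 50.98 in the double mutant and 7.82 ± 1.83 in 35S:AGL15. Since 35S:AGL15 lay below background, only bounds can be given for the size. Measured against the background level of those arrays, AT4G14090 was at least 3.79-fold lower in 35S:AGL15 than in wild type and at least 2.91-fold lower than in the double mutant. With low values raised to background in this way, the limma adjusted p was 0.018 and 0.026. The fitted log2 differences on the intensities as deposited were −3.39 (SE 0.51, limma adjusted p = 0.0147) and −3.01 (SE 0.51, adjusted p = 0.0113). They rest on values below background and are no measure of size. Between the double mutant and wild type the log2 difference was −0.38 (SE 0.51, interval −1.54 to 0.79, limma adjusted p = 0.645).

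The call of AT4G14090 against wild type was lost without wild type replicate 1 (adjusted p = 0.0632 by limma), without wild type replicate 2 (0.0568) and without 35S:AGL15 replicate 1 (0.0601), while the log2 difference stayed between −3.53 and −3.18 over all 9 omissions of an array. Within the 5 arrays with dim spike-in controls, it was −3.45 (adjusted p = 0.0474 by limma). The call against the double mutant held in all 18 alternatives that could be fitted, with adjusted p-values from 0.00288 to 0.0482.

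AT5MAT was dim in all genotypes. Its intensities were 30.7, 37.5 and 42.2 in wild type, 22.2, 21.5 and 44.6 in 35S:AGL15 and 10.2, 38.5 and 40.9 in the double mutant. The groups overlapped in every comparison. Relative to the background level of its array AT5MAT reached 1.12 to 3.08 times on 8 arrays, and 0.252 times on replicate 1 of the double mutant, which had the highest background.

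AT5MAT averaged 36.8 ± 5.81 (SD, n = 3) in wild type, 29.9 ± 17.1 in the double mutant and 29.5 ± 13.1 in 35S:AGL15. The log2 difference was −0.40 in 35S:AGL15 against wild type (interval −1.65 to 0.86, limma adjusted p = 0.729) and −0.53 in the double mutant against wild type (interval −1.79 to 0.72, adjusted p = 0.539). Between 35S:AGL15 and the double mutant it was 0.14 (interval −1.12 to 1.39, adjusted p = 0.893). The direction in the double mutant turned to 0.12 without its replicate 1 and to 0.13 when low values were raised to background. The double mutant array with the highest DFR and AT4G14090 was the lowest for AT5MAT, and the closeness of AT5MAT to background limits what its probe set can show.

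These counts are read against the whole array. In 35S:AGL15 against wild type 1 of the 3 members was called, where 3.68% of all probe sets were called. The groups did not overlap for 2 members (DFR and AT4G14090), against 23% of all probe sets. In the double mutant against wild type no member was called, against 18.9% of all probe sets, and no member had groups apart, against 46.1%. At an unadjusted p under 0.05 there was also 0 of 3, against 34.3% of all probe sets. In 35S:AGL15 against the double mutant 1 member was called and had groups apart on the intensities as deposited, against 15.7% and 33.9% of probe sets. The 2 comparisons with wild type share the same wild type arrays.

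**Figure D2:**
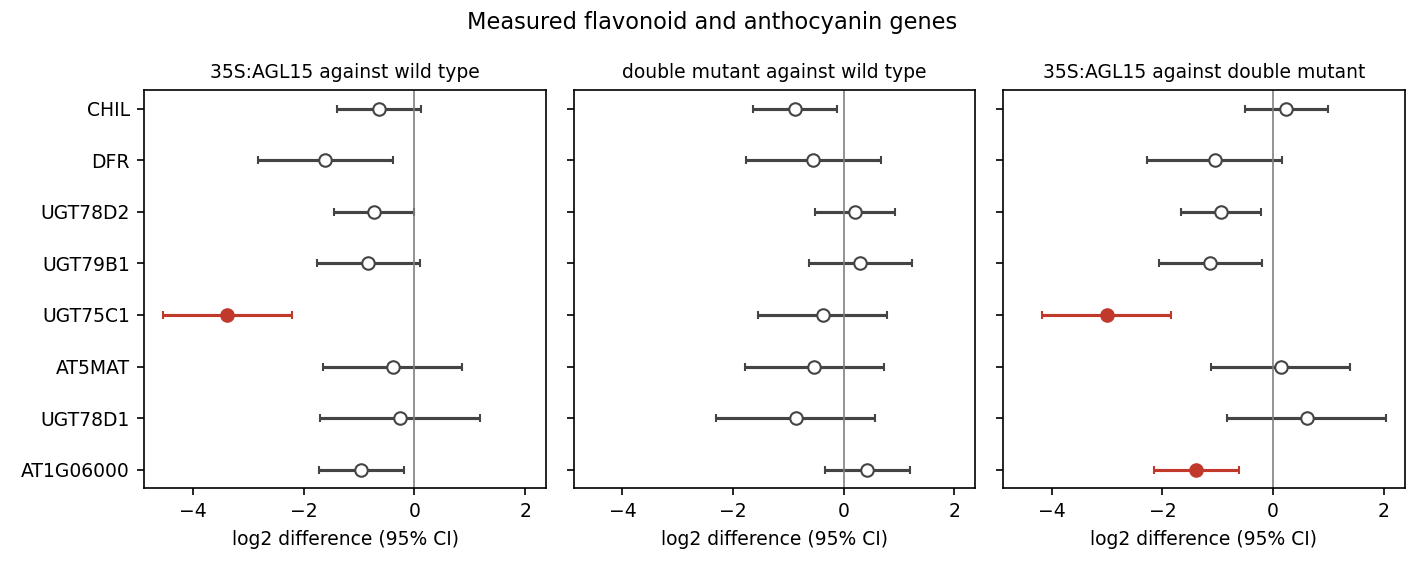
Log2 differences with 95% confidence intervals from limma for 8 measured pathway genes in the 3 comparisons of genotypes. Filled red points passed an adjusted p of 0.05 and open points did not. UGT75C1 (AT4G14090) is called in both comparisons that involve 35S:AGL15, with values below background in 35S:AGL15, and AT1G06000 only in 35S:AGL15 against the double mutant.

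The other measured genes of the pathway give the surroundings of the 3 members. UGT79B1 (UF3GT, AT5G54060), which extends the anthocyanin sugar chain with xylose, measured 68.5, 82.5 and 86.2 in wild type. It measured 37.3, 48.2 and 48.3 in 35S:AGL15 and 185, 92.8 and 53.1 in the double mutant. Every array of 35S:AGL15 was below every array of the other genotypes. The log2 differences of UGT79B1 were −0.83 from wild type (limma adjusted p = 0.335) and −1.13 from the double mutant (adjusted p = 0.0977), and neither passed. The second passed in 2 of 18 alternatives, low values raised to background and the omission of double mutant replicate 3 (−1.57).

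UGT78D2, which puts the first glucose on anthocyanidins and flavonols, measured 373, 338 and 263 in wild type and 143, 321 and 155 in 35S:AGL15. In the double mutant it measured 374, 387 and 349. Replicate 2 of 35S:AGL15 lay among the wild type arrays, and the other 2 lay below them. UGT78D2 had log2 differences of −0.74 in 35S:AGL15 against wild type (limma adjusted p = 0.271) and −0.94 against the double mutant (adjusted p = 0.0800). The latter passed the threshold in 8 of 19 alternatives, and the former in 2 of 20, array weights and the omission of 35S:AGL15 replicate 2 (−1.11, limma adjusted p = 0.0274).

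CHIL, a chalcone isomerase-like protein of the early steps, measured 144, 177 and 167 in wild type. It measured 80.2, 106 and 131 in 35S:AGL15 and 126, 99.1 and 54.2 in the double mutant. Both altered genotypes lay below all wild type arrays, with log2 differences of −0.64 (limma adjusted p = 0.356) and −0.88 (adjusted p = 0.0982). Neither difference of CHIL was called. The first passed in 1 of 20 alternatives, array weights. The second ran from −1.68 to −0.37 and passed in 3 of 19, which were spike-in scaling (limma adjusted p = 0.00862), the fit without the dimmest 40% of probe sets (0.0368) and array weights (0.0112).

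In the flavonol branch, AT1G06000 averaged 186 ± 71.9 (SD, n = 3) in wild type, 239 ± 20.7 in the double mutant and 95.6 ± 36.9 in 35S:AGL15. It was lower in 35S:AGL15 than in the double mutant by a log2 difference of −1.39 (SE 0.33, limma adjusted p = 0.0301). That call was lost in 8 of 19 alternatives. These were spike-in scaling (−0.82), the replicate block (adjusted p = 0.0671 by limma), the fit on the 2 groups compared (0.0600), and the omission of replicate 1 (0.0991) or 3 (0.0700) of 35S:AGL15 or of replicate 1 (0.0707), 2 (0.0669) or 3 (0.0944) of the double mutant. Against wild type its log2 difference in 35S:AGL15 was −0.96 (adjusted p = 0.181 by limma), and −1.26 without 35S:AGL15 replicate 2 (adjusted p = 0.0496).

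UGT78D1, which adds rhamnose to flavonols, measured 78.3, 74.8 and 65.6 in wild type and 49.7, 85.5 and 52.0 in 35S:AGL15. Double mutant values of UGT78D1 were 90.5, 52.8 and 13.1, the last below background. Its log2 differences from wild type were −0.27 in 35S:AGL15 (limma adjusted p = 0.851) and −0.87 in the double mutant (adjusted p = 0.370). The latter was −0.07 without double mutant replicate 3 and −1.47 without its replicate 1. UGT78D3, a flavonol glycosyltransferase, was above background on only 1 of 9 arrays, and BAN, which diverts the pathway to seed coat tannins, on none.

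Counting the members, 1 of the 10 pathway genes was called lower in 35S:AGL15 against wild type and none higher, where 3.68% of all probe sets were called. All 10 log2 differences were below 0, with a median of −0.78 against −0.13 over all probe sets. The share of all probe sets below 0 was not counted, and their median moved to 0.12 under median centring. UGT78D1 was at −0.02 under that scaling. The 10 include BAN, below background on every array, and UGT78D3, above it on only 1. Of the 7 genes that are no members none was called, at adjusted p-values from 0.181 to 0.851 by limma, with 2 at an unadjusted p under 0.05, against 17.8% of all probe sets. In the double mutant against wild type none of the 10 was called by limma, against 18.9% of all probe sets, and 1 had an unadjusted p under 0.05, against 34.3%. The median there was −0.44 against −0.16 over all probe sets. For the 7 genes that are no members it was −0.035, with 4 below 0 and 3 above. In 35S:AGL15 against the double mutant 2 of 10 were called lower, close to the 15.7% of all probe sets called in either direction, and 4 had an unadjusted p under 0.05, against 31.3%. The median was −0.98 against 0.08, and −0.94 for the 7 genes that are no members. Some of these values lie below background, and both comparisons with 35S:AGL15 share its arrays.

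Fewer cells that express a gene and less RNA per cell cannot be told apart in these bulk samples. Summed marker lists of other tissues also differed between some of the groups, though markers within a list did not all go the same way. The summed intensity of the 3 measured leaf photosynthesis markers ran from 3892 to 5428 in wild type, from 2717 to 3907 in 35S:AGL15 and from 4232 to 4952 in the double mutant. The leaf sums of the double mutant thus lay within the wild type range. PRK averaged 542 in wild type and 244 in the double mutant, LHCB4.2 830 and 1290, and RCA 3236 and 3127. In wild type, 35S:AGL15 and the double mutant, the 3 embryo markers summed to 659 to 1005, 1986 to 3200 and 961 to 1604. Of these, BBM averaged 485, 503 and 506, OLEO3 317, 1931 and 700, and PAP85 50.7, 243 and 99.1. Both measured root markers summed to 151 to 246, 248 to 341 and 224 to 304, and the 2 shoot meristem markers to 98.0 to 192, 63.1 to 90.6 and 107 to 122, with CLV3 below background. Their part in the levels of the anthocyanin genes was not tested.

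**Figure D3:**
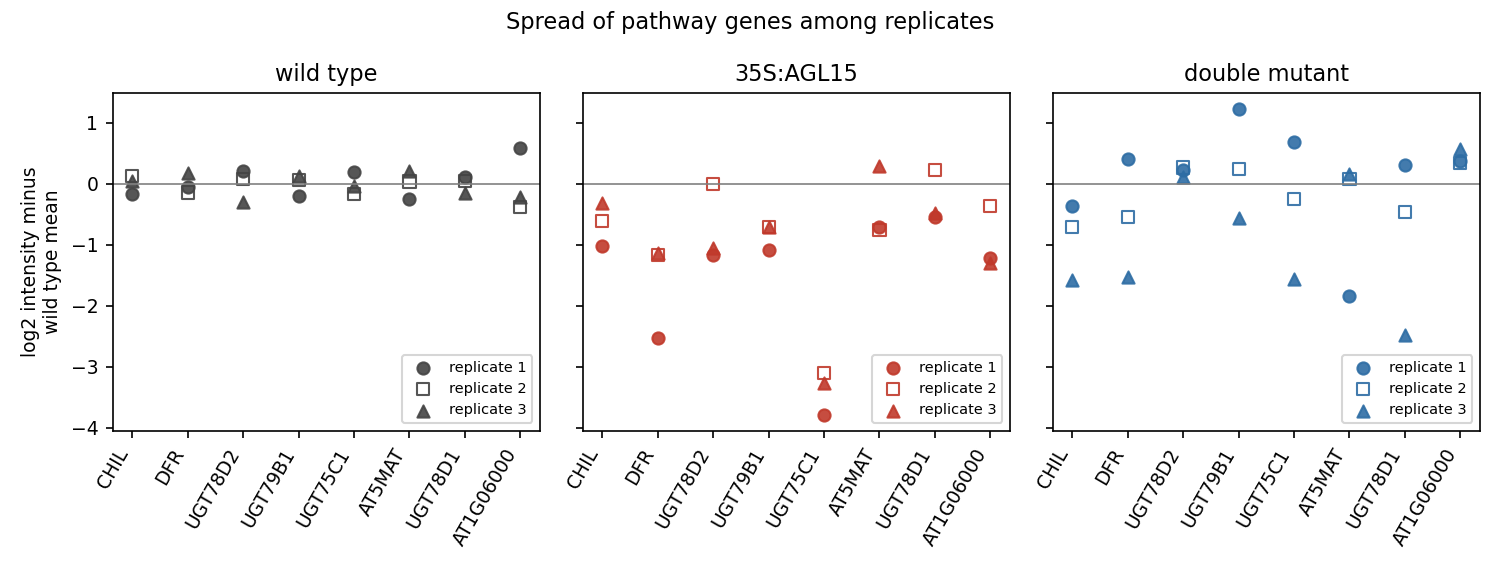
Log2 intensity of 8 pathway genes minus the wild type mean of the same gene, on each array of the 3 genotypes. Symbols mark the replicate number within a genotype, which pairs nothing across genotypes. In the double mutant CHIL, DFR, UGT79B1, UGT75C1 and UGT78D1 were highest on replicate 1 and lowest on replicate 3, whereas UGT78D2 and AT1G06000 lay close together.

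Within the double mutant, several pathway genes were spread more widely over the replicates than in wild type. DFR was 3.81-fold, UGT79B1 3.48-fold and AT4G14090 4.75-fold higher on replicate 1 than on replicate 3, with replicate 2 between. CHIL showed the same order with 2.32-fold. In wild type the highest array exceeded the lowest by 1.25-fold for DFR, 1.26-fold for UGT79B1, 1.29-fold for AT4G14090 and 1.23-fold for CHIL. In 35S:AGL15 it did so by 2.62-fold for DFR, 1.29-fold for UGT79B1, 1.63-fold for CHIL and, below background, 1.62-fold for AT4G14090. Each of these genes thus had a narrow range in wild type and a wide one in the double mutant, and DFR was also spread in 35S:AGL15.

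UGT78D1 showed the same order in the double mutant, with 6.90-fold and replicate 3 below background. UGT78D3 did so too, with every double mutant array below background. Other pathway genes did not vary in this way. UGT78D2 differed by 1.11-fold and AT1G06000 by 1.17-fold between the highest and the lowest array of the double mutant. AT5MAT was lowest on replicate 1, at 10.2. The log2 ratio of DFR to AT4G14090 was 0.58, 0.55 and 0.90 on the double mutant arrays and 0.60, 0.88 and 1.07 on those of wild type. The ratio thus overlapped between the double mutant and wild type, although the levels of both genes on the double mutant arrays differed. In 35S:AGL15 the ratio on the intensities as deposited was 2.12, 2.79 and 2.98. These values rest on AT4G14090 below background and are no measure of size. On replicate 1 of 35S:AGL15 DFR was itself only 1.26 times background, so a ratio above those of wild type is not shown for that array.

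Among the 15453 probe sets above background on all 3 double mutant arrays, 1.20% had replicate 1 at least 2-fold over replicate 3 with replicate 2 between, and 0.647% had the reverse. Of the 6 pathway genes in that set 4 had the first order. An SD of log2 intensity as large as that of DFR, 0.97, was found for 0.324% of those probe sets, and one as large as that of AT4G14090, 1.13, for 0.129%. This order was noticed in the data and is given as a description. The medians of these arrays were 135, 142 and 132, and their spike-in averages 1690, 1284 and 1065. The part of the spike-in difference in this order was not tested.

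Over the 9 arrays, DFR and AT4G14090 had a Pearson correlation of log2 intensity of 0.889, and of 0.903 after the group means were removed. For UGT79B1 these values were 0.850 and 0.882 with DFR, and 0.863 and 0.929 with AT4G14090. AT5MAT had −0.12 with DFR and −0.10 with AT4G14090 over the 9 arrays, and −0.44 and −0.67 after the group means were removed, with its lowest value on replicate 1 of the double mutant. These correlations share arrays and scaling and are descriptions. Most of the spread that remained after removal of the group means came from the double mutant arrays.

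The probe sets with a single gene and at least 3 arrays above background (10783) were ranked by their correlation with each member over the 9 arrays. A shared pattern over the arrays is thus given by the choice and is no separate result. Most like AT4G14090 were AT2G46420 (r = 0.984), AT5G04610 (0.973), AT1G52000 (0.970), AT1G69730 (0.962) and ALC (0.959), a bHLH gene known from fruit opening. AT1G52000 was above background on only 3 of 9 arrays, those of wild type, so its correlation rests largely on values below background. AT2G46420 averaged 573 in wild type, 517 in the double mutant and 250.5 in 35S:AGL15. AT1G69730 measured 63.4, 94.98 and 85.5 in wild type, 4.12, 6.82 and 7.32 in 35S:AGL15 and 60.6, 49.7 and 13.2 in the double mutant. It shared with AT4G14090 the values far below wild type in 35S:AGL15 and the low replicate 3 of the double mutant. AT1G69730 was below background on all of those arrays, and above it on 5 of 9.

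Most like DFR were AT4G37445 (r = 0.923), AT2G06820 (0.921), AT5G53030 (0.918), AT5G04310 (0.915) and the receptor kinase gene SD1-29 (0.913). AT5G04310 measured 128, 139 and 108 in wild type, 49.0, 68.9 and 72.3 in 35S:AGL15 and 156, 110 and 90.7 in the double mutant, which is the order of arrays seen for DFR in both altered genotypes. Most like AT5MAT were AT2G10740 (r = 0.955), AT1G30790 (0.945), AT3G62930 (0.938), AT3G18900 (0.936) and AT4G05470 (0.936). All 5 were dim, with 3 to 8 of 9 arrays above background, and all were lowest on replicate 1 of the double mutant, at 2.22 to 8.29.

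**Figure D4:**
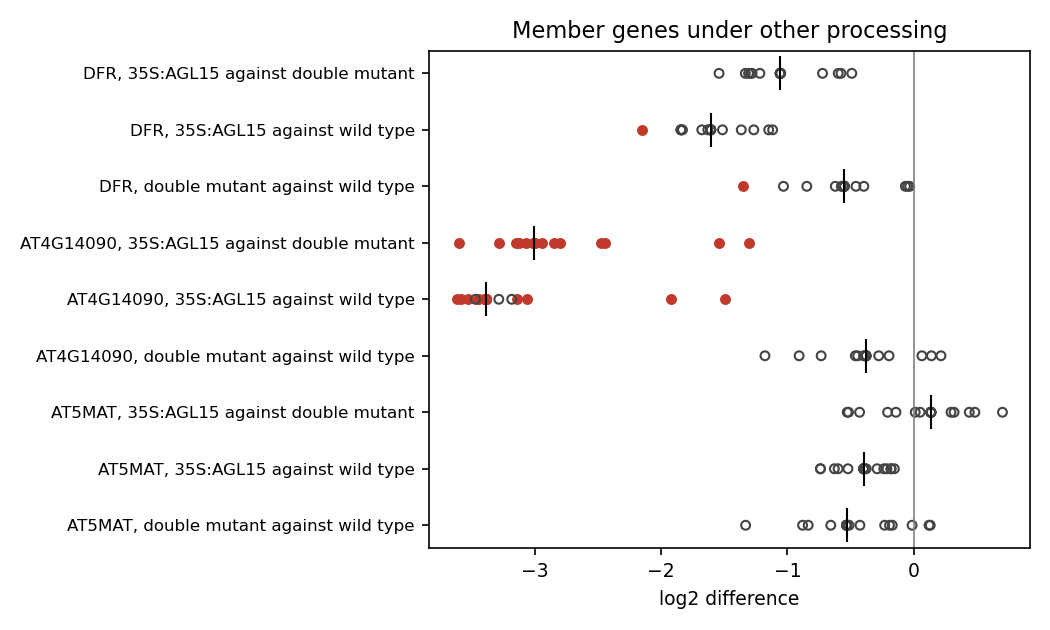
Log2 difference of each member in each comparison under the processing alternatives (circles) and as reported (black bars). Red circles passed an adjusted p of 0.05. AT4G14090 (UGT75C1) stayed below 0 in both comparisons with 35S:AGL15, whereas AT5MAT changed sign in the comparisons with the double mutant.

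Under the processing alternatives, DFR kept a negative log2 difference in 35S:AGL15 against wild type in all 19, from −2.15 to −1.12, and passed the threshold in 1. AT4G14090 kept its direction against wild type in all 19, from −3.62 to −1.50, and passed in 16. For the double mutant against wild type, DFR ran from −1.35 to −0.03 over 18 alternatives and AT4G14090 from −1.18 to 0.22. The interval of DFR as reported was −1.77 to 0.67, so these data fix no direction for either gene there.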

How the data were processed

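Per the labels' protocols, biotin-labelled cRNA for the Affymetrix arrays was made from 4 µg of total RNA in each of the 9 samples. The authors deposited a linear intensity for each probe set on each array, and these intensities ran from 0.0293 to 33792 and shared a mean of about 500 after trimming of 2% at each end. How probes were summarised and corrected for background is not given in the sources used here. Log2 of each intensity was taken without an offset, 64 control probe sets were left out, and 22746 probe sets were fitted over all 9 arrays with limma 3.58.1 (lmFit, eBayes) in R 4.3.3. Tests were two-sided, with Benjamini-Hochberg adjustment over all probe sets tested. "Called", "fell" and "rose" mean an adjusted p under 0.05. A fold is a bound where a group lay below the background level on every array. In the array annotation 13513 probe sets had 1 gene, 503 had several and 8730 had none, and 13436 of the 13513 matched a locus of the reference table (TAIR10.1) by gene number. No positions or sequences are printed.

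The named genes are the members, all measured genes of the pathway lists, and the 5 probe sets most correlated with each member. The members and lists were chosen with earlier results of these data known. The fit was tested on simulated data. No 2 arrays were identical. Precision is limited by the number of arrays. Of 9 pairs of arrays with the same replicate number in different genotypes, 0 had correlated deviations above 0.1, so the numbers were not used as pairs. Alternatives were other scalings, a floor at the background level, a filter, an offset of 32, a replicate block, a fit on the groups compared, array weights, an intensity trend and leaving out each array. A fit within the arrays with dim spike-in controls was chosen after seeing the data.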

Additional observations from a re-analysis of the deposited data

How the results depend on the processing

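AT5MAT near background, and AT4G14090 below it in 35S:AGL15, limit what their differences can show. The median of all probe sets moved from −0.13, −0.16 and 0.08 (35S:AGL15 against wild type, double mutant against wild type, 35S:AGL15 against double mutant) to 0.12, 0.36 and −0.20 under median centring and to −0.36, −0.96 and 0.65 under spike-in scaling. Without the dimmest 40% of probe sets no member was left to test. The cause of the changes below was not tested.

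For 35S:AGL15 against wild type, DFR passed with array weights (−2.15). AT4G14090 ran from −3.53 to −3.18 when an array was left out, with the calls lost as given above. All probe sets called numbered 838, against 228 under spike-in scaling, 1417 with low values raised to background, 1525 with an offset of 32, 320 with the replicate block, 6467 with array weights, 427 in the fit on the groups compared, 47 within the arrays with dim spike-in controls, and 191 to 1867 when an array was left out (wild type replicates 1, 2 and 3 gave 192, 191 and 422, and 35S:AGL15 replicates 1 and 2 gave 195 and 1867). Of the 838, 313 were higher and 525 lower, which became 418 and 397 under quantile normalization, 404 and 294 under median centring and 56 and 172 under spike-in scaling. Pathway genes called were 1, against 0 without the dimmest 40%, 6 with array weights and 0 to 3 when an array was left out.

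For the double mutant against wild type, DFR passed under spike-in scaling (−1.35). AT5MAT turned to 0.13 with low values raised and ran from −0.88 to 0.12 (without double mutant replicate 1) when an array was left out. AT4G14090 turned to 0.065 under quantile normalization and 0.14 under median centring, and ran from −0.91 to 0.22 (without double mutant replicate 3). Under spike-in scaling UGT78D2 turned to −0.60, UGT79B1 to −0.50 and AT1G06000 to −0.37. UGT79B1 turned to −0.078 with array weights and ran from −0.16 (without double mutant replicate 1) to 0.73. Probe sets called were 4304, against 7444 under spike-in scaling, 9169 with array weights and 1829 to 5673 when an array was left out (wild type replicates 1, 2 and 3 gave 2352, 1829 and 2433, and double mutant replicate 3 gave 2243). Higher and lower calls numbered 886 and 3418, and 1633 and 2101 under quantile normalization, 4082 and 1576 under median centring and 72 and 7372 under spike-in scaling. Pathway genes called were 0, against 1 under median centring, 1 without the dimmest 40%, 1 with array weights and 2 under spike-in scaling.

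For 35S:AGL15 against the double mutant, AT5MAT turned to −0.14 under median centring, −0.53 with low values raised and −0.43 with array weights, and ran from −0.52 (without double mutant replicate 1) to 0.48, with −0.21 without 35S:AGL15 replicate 3. CHIL turned to −0.037 under median centring and ran from −0.11 to 0.50, and UGT78D1 ran from −0.19 to 1.20, both negative without double mutant replicate 3. Probe sets called were 3567, against 2066 with the replicate block, 7921 with array weights, 867 in the fit on the groups compared and 1032 to 4192 when an array was left out (wild type replicate 2 gave 2153, 35S:AGL15 replicate 1 gave 1032, and double mutant replicates 1, 2 and 3 gave 2007, 2042 and 1162). Higher and lower calls numbered 2369 and 1198, and 1672 and 1526 under quantile normalization, 1210 and 2528 under median centring and 2376 and 142 under spike-in scaling. Pathway genes called were 2, against 1 under spike-in scaling, 1 with the replicate block, 1 in the fit on the groups compared, 4 with low values raised and 1 to 3 when an array was left out. The replicate block changed no call of a member, and 3 of 18 choices of the most similar array in another genotype fell on the same number.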
